A study of Rattus norvegicus with 12 samples.

Results

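The effect of the lowest dose of A-998679 on the rat liver was described by comparing 3 rats given 30 mg/kg/day for 5 days with 3 rats given vehicle. These are 6 of the 12 arrays of the series, chosen by their titles, and the comparison covers the 21746 of 29176 probe sets (74.5%) that had a value in all 6 arrays. A probe set is the group of short probes on the array that reports 1 transcript. All rats were male Sprague Dawley rats, listed at 176 to 200 g, were dosed by mouth and were fasted overnight after the last dose. The 30 mg/kg rats received A-998679, an experimental modulator of nicotinic receptors. The vehicle rats received 10 ml/kg of 0.2% HPMC, a suspending agent made from cellulose. The remaining rats received 100 or 200 mg/kg, and 1 label of the last group gives 300 mg/kg where its title gives 200. Total RNA from each liver was hybridized to 1 Affymetrix RAE230 2.0 array. The question put to these arrays is which liver transcripts differ at the lowest dose, and which differ only at higher ones.

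The aryl hydrocarbon receptor (AhR) is a cytoplasmic protein that, once bound by a planar aromatic ligand, enters the nucleus, pairs with Arnt and binds short DNA elements beside its target genes. Its best known liver targets are Cyp1a1 and Cyp1a2, which oxidize aromatic compounds, and enzymes that reduce or conjugate the products, such as Nqo1 and glutathione transferases. Many of the conjugating enzymes are also targets of Nrf2, the sensor of reactive compounds, which binds antioxidant response elements.

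Values are log2 intensities throughout, and a difference of 1 on this scale is a doubling of intensity. Between 25528 and 25681 probe sets had a value on each array, and the array medians lay between 5.21 and 5.26. Pairs of arrays correlated at 0.902 to 0.917 within 30 mg/kg, 0.910 to 0.930 within vehicle and 0.901 to 0.933 between these groups. Hepatocyte markers were bright, with a summed intensity of 60620 to 67350 units at 30 mg/kg and 62040 to 66180 units in vehicle, and 0 of 11 measured markers had an unadjusted limma p under 0.05. In whole liver, a smaller number of cells of a type and less RNA per cell cannot be told apart. Groups were compared with limma with all 12 arrays in 1 model, and a probe set passed when its Benjamini-Hochberg adjusted p was under 0.05. The number of arrays, 3 in each group, limits the precision.

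No probe set passed that threshold between 30 mg/kg and vehicle (limma, 0 of 21746 in either direction, 0%). At an unadjusted limma p under 0.05, 545 probe sets (2.51%) were higher and 591 (2.72%) were lower at 30 mg/kg. For the arrays the methods name the error model of Rosetta Resolver, which cannot be repeated from these values. The t-test they name for other software, run on the same 6 arrays, gave 482 higher and 543 lower without adjustment. After adjustment it gave 0, and it is no repeat of the study's own array test. In 1103 probe sets (5.07%) every rat at 30 mg/kg was higher than every vehicle rat, and in 1154 (5.31%) every one was lower. With 3 rats against 3, shares close to these are expected in each direction when no transcript differs. The same holds for the shares at an unadjusted limma p under 0.05. These counts therefore do not show that transcripts differed, and a lack of overlap in a single gene is weak evidence. In data simulated with the same spread, the same fit called 31% of 100 simulated 2-fold changes and 63% of 100 simulated 4-fold changes. Both sets of changes were planted together, with normally distributed noise, and the rates hold for that setting only. A count of 0 therefore does not show that no transcript differed. With the same vehicle rats, 2 probe sets were called higher (0.00921%) and 0 lower at 100 mg/kg, and 27 were called higher (0.123%) and 21 lower (0.0959%) at 200 mg/kg.

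**Figure D1:**
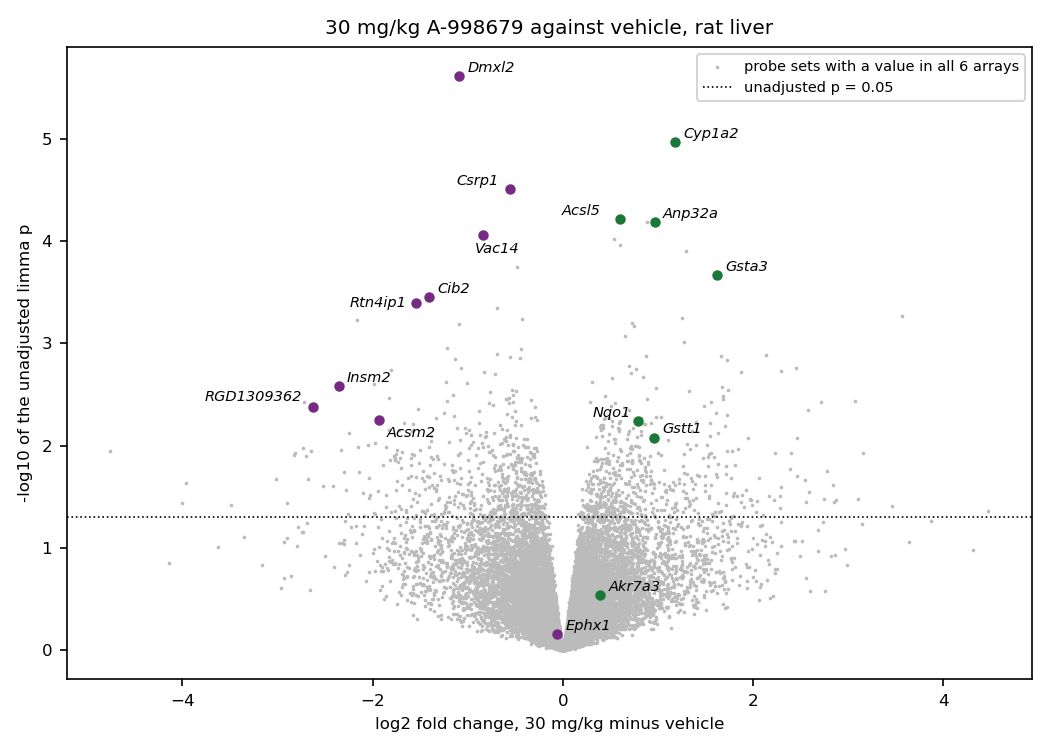
Log2 fold change of 30 mg/kg minus vehicle (x axis) against minus log10 of the unadjusted limma p (y axis) for the probe sets with a value in all 6 arrays, 1 gray point each. Named genes are colored green where higher and purple where lower at 30 mg/kg, and Dmxl2 and Cyp1a2 have the smallest p in each direction.

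The promoters of Cyp1a2, Nqo1, Gsta3 and Dmxl2 are shown first, because the AhR and Nrf2 elements are defined by their letters. Dmxl2 and Cyp1a2 have the smallest p in each direction. Nqo1 and Gsta3 were picked as a known AhR target and a glutathione transferase. Other genes, whose windows are not shown, had a smaller p than Nqo1. Each RefSeq window (assembly GRCr8) runs from 250 bases before the start of a transcript to 50 bases after it. Capitals mark GCGTG, the core of the AhR response element, or TGACNNNGC, the core of the antioxidant response element, on either strand (CACGC and GCNNNGTCA in reverse). Over 33469 rat windows, 29.7% hold the first motif, 12.1% the second and 4.51% both. A match is a description of the letters and no proof of a bound site. A window without a match leaves unknown whether an element lies outside it.
Cyp1a2, chr8:66978100-66978399, minus strand: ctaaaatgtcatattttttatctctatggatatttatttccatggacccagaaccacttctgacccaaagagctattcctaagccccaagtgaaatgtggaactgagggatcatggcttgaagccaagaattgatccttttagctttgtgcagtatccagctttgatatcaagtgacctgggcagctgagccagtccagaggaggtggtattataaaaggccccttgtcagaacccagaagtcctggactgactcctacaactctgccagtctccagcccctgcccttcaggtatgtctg
Nqo1, chr19:52220218-52220517, minus strand: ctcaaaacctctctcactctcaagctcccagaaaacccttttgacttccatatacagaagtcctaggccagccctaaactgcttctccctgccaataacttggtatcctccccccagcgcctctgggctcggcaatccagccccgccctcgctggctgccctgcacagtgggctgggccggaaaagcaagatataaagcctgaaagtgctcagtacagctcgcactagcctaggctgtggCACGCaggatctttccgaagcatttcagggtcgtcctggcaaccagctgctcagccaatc
Gsta3, chr9:31154739-31155038, plus strand: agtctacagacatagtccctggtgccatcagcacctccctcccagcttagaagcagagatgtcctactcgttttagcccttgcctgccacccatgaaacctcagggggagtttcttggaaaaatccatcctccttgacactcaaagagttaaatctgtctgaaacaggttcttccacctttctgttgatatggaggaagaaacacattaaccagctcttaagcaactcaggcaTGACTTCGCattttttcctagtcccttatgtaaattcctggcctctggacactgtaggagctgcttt
Gsta3, chr9:31166793-31167092, plus strand: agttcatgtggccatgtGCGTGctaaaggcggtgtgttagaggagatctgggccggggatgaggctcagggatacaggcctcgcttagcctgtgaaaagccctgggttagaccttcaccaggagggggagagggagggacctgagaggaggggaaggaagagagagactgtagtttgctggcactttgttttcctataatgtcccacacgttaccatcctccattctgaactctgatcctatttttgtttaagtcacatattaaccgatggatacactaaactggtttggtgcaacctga
Dmxl2, chr8:63781067-63781366, minus strand: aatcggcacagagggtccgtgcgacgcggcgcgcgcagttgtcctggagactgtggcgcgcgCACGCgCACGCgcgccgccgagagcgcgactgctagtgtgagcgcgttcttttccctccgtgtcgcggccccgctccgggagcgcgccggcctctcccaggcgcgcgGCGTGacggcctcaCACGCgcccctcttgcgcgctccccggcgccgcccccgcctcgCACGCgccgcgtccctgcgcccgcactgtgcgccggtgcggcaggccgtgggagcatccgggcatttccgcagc
The Dmxl2 window holds the AhR core 5 times, the Nqo1 window once beside the start, and the Cyp1a2 window on neither strand has either motif. Of the 2 Gsta3 windows, 1 holds the antioxidant core and the other the AhR core. Of 70 genes looked for, 54 had a window, and 18 of these held GCGTG and 8 held TGACNNNGC. Some genes have several windows and were counted if any of them held the motif. These counts are thus not on the same footing as the shares above, which are per window.

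Cyp1a2, the Cyp1a enzyme that untreated liver already makes, had the smallest p of any probe set that was higher. Its level was 12.23, 12.38 and 12.22 in the 3 rats at 30 mg/kg, against 10.92, 10.77 and 11.62 in the vehicle rats. The 3 dosed rats lay close together and above every vehicle rat, and the third vehicle rat lay above the other two. The log2 fold change was 1.17 (standard error 0.17, a 2.26-fold difference), with an unadjusted p of 1.07e-05 and an adjusted p of 0.117 in limma, which missed the threshold. The 2-sided exact permutation test gave p = 0.1, the smallest that 3 rats against 3 allow. Without the third vehicle rat the log2 fold change was 1.43 and passed (adjusted p = 3.23e-04 in limma, against 3.23e-04 to 0.966 over all alternatives). Quantile normalization (adjusted p = 0.0352) and array weights (adjusted p = 0.0471) also brought Cyp1a2 past the threshold in limma. The 100 mg/kg rats had levels of 12.62, 12.61 and 12.59, and the 200 mg/kg rats of 12.49, 12.34 and 12.66. Against the same vehicle rats Cyp1a2 passed at 100 mg/kg (adjusted p = 0.00766) and at 200 mg/kg (adjusted p = 0.00405 in limma). The difference between 100 and 30 mg/kg was 0.34 (95% interval -0.03 to 0.70, adjusted p = 0.868 in limma). The difference between 200 and 30 mg/kg was 0.22 (95% interval -0.14 to 0.59, adjusted p = 0.756 in limma).

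Cyp1a1, the inducible partner of Cyp1a2, had no value in any of the 6 rats and could not be compared. It had a level of 4.58 and 4.07 in 2 of the 100 mg/kg rats and of 10.41, 6.50 and 6.37 in the 200 mg/kg rats. Why a value is empty is not stated in the sources used here. Abcc3, an efflux pump for glucuronides, was also outside the comparison. It had a value of 4.57 in 1 of 3 rats at 30 mg/kg and none in vehicle rats. The 100 mg/kg rats had 4.91, 6.65 and 5.45, and the 200 mg/kg rats had 7.77, 8.25 and 7.62, so that every rat at 200 mg/kg lay above every rat at 100 mg/kg.

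Nqo1, the quinone reductase that both AhR and Nrf2 regulate, was at 9.01, 8.68 and 9.05 at 30 mg/kg and at 8.30, 7.56 and 8.49 in vehicle rats. The groups did not overlap, although the lowest dosed rat was close to the highest vehicle rat. The log2 fold change was 0.79 (standard error 0.24, unadjusted p = 0.0057, adjusted p = 0.943 in limma). Ahr itself was at 5.91, 5.06 and 5.76 at 30 mg/kg and at 5.51, 4.75 and 4.26 in vehicle rats. These values overlapped, and the log2 fold change of 0.74 had an unadjusted limma p of 0.057. Among the members with no such difference were Arnt, the partner of Ahr, at -0.26, Tiparp, which limits AhR signaling, at -0.19, and Cyp1b1, an extrahepatic target, at -0.01. Of 10 measured members of 17 listed, 2 were higher at an unadjusted limma p under 0.05 (Cyp1a2 and Nqo1) and 0 were lower. The median log2 fold change of the list was 0.02, where all 11303 named genes had 2.62% higher, 2.52% lower and a median of 0.00. Of these genes 5.25% were higher and 5.04% lower without overlap.

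**Figure D2:**
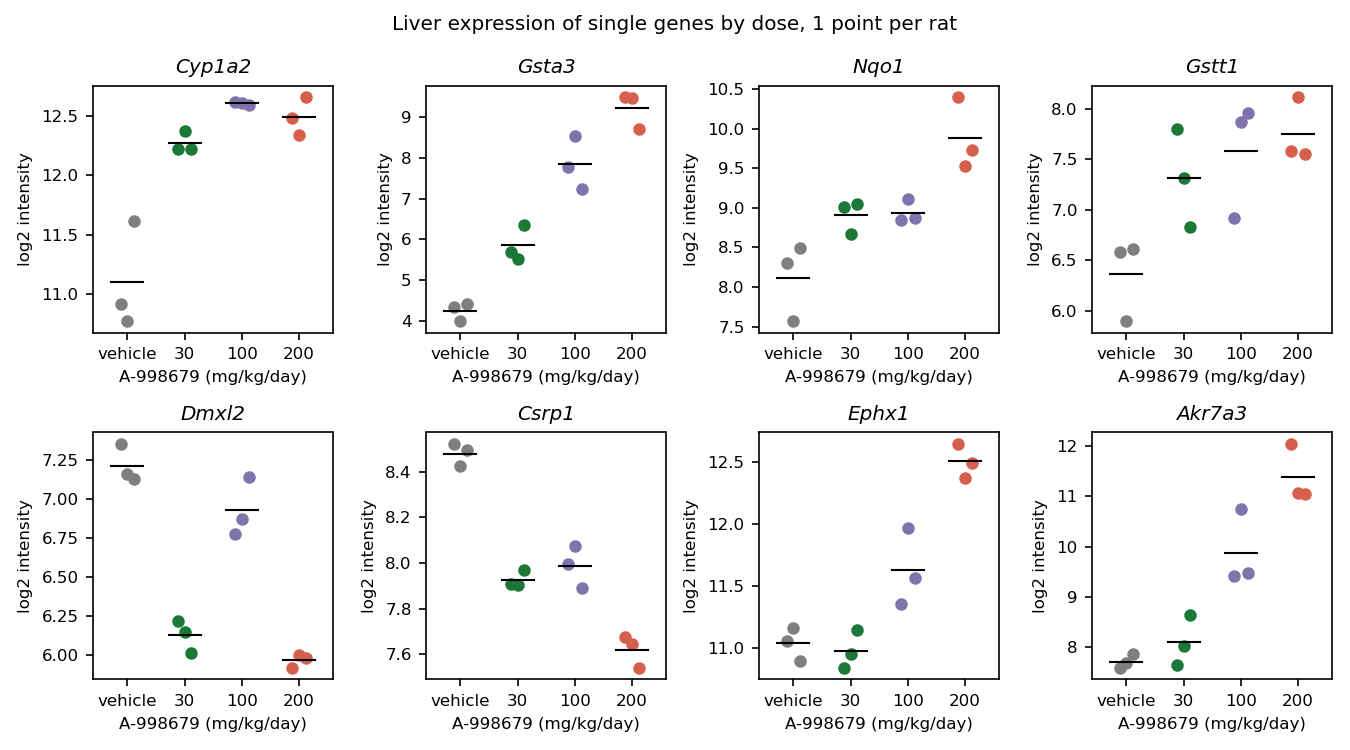
Log2 intensity (y axis, a separate range in each panel) of 8 genes by dose of A-998679 in mg/kg/day (x axis), with 1 point per rat and a line at the mean of 3 rats. Cyp1a2 at 30 mg/kg lies near the higher doses, Gsta3 has a higher mean at each dose, and Dmxl2 is lower at 30 and 200 mg/kg than at vehicle and 100 mg/kg. Ephx1 and Akr7a3 are higher at 200 than at 30 mg/kg, and neither passed at 100 mg/kg against vehicle.

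Glutathione transferases, which attach glutathione to reactive compounds, were mostly above 0. Of 21 measured members of 26 listed, 16 had a log2 fold change above 0 and 5 below, with a median of 0.18, where all 11303 named genes had 5766 above and 5537 below. At an unadjusted limma p under 0.05, 3 were higher (Gsta3, Gstt1 and Mgst2) and 0 lower, beside 2.62% higher and 2.52% lower over all named genes. Gsta3, an alpha class enzyme, was at 5.70, 5.52 and 6.36 at 30 mg/kg, against 4.34, 3.98 and 4.41 in vehicle rats. Every dosed rat was well above every vehicle rat. The log2 fold change was 1.62 (standard error 0.32, a 3.06-fold difference, unadjusted p = 2.13e-04, adjusted p = 0.386 in limma). Gsta3 was higher still at 100 mg/kg, with 7.77, 8.53 and 7.23, and highest at 200 mg/kg, with 9.49, 9.46 and 8.70. Against vehicle Gsta3 passed at 100 mg/kg (adjusted p = 9.3e-04 in limma) and at 200 mg/kg (adjusted p = 1.87e-05 in limma). The difference of 100 over 30 mg/kg was 1.99 (95% interval 1.30 to 2.67) and did not pass (adjusted p = 0.230 in limma). That of 200 over 30 mg/kg was 3.36 and passed (standard error 0.32, adjusted p = 0.00107 in limma).

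Gstt1, a theta class enzyme, was at 7.80, 7.31 and 6.83 at 30 mg/kg and at 6.58, 5.90 and 6.61 in vehicle rats. The groups did not overlap but the rats of each were spread, and the log2 fold change was 0.95 (unadjusted p = 0.0083 in limma). Gstt1 means at 100 and 200 mg/kg were 7.58 and 7.75, and the difference of 200 over 30 mg/kg was 0.43 (95% interval -0.23 to 1.09, adjusted p = 0.738 in limma). Mgst2, a microsomal enzyme, had a log2 fold change of 0.32 at 30 mg/kg. Gstm1, the bright mu class enzyme, was at 12.03, 12.01 and 12.10 at 30 mg/kg and at 12.10, 12.01 and 11.98 in vehicle rats, with the groups on top of each other. Members of this family are close in sequence and their probe sets may share signal. The count of higher members was 2 to 5 when any 1 of the 12 rats was left out, with 5 without the second rat at 30 mg/kg.

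Aldh1a1, a retinal dehydrogenase, was at 10.43, 9.79 and 10.62 at 30 mg/kg and at 9.73, 9.94 and 9.51 in vehicle rats, and the second dosed rat lay below the second vehicle rat. Its log2 fold change was 0.55 (unadjusted p = 0.0093 in limma). Ugt2b1, a glucuronosyltransferase, had a log2 fold change of 0.78, and Abcb1a, a P-glycoprotein efflux pump, of 0.42, both with an unadjusted limma p under 0.05. Sult1b1, a phenol sulfotransferase, was at 11.84, 11.80 and 11.82 at 30 mg/kg and at 11.39, 11.41 and 11.52 in vehicle rats. The dosed rats were nearly equal, and the difference of 0.39 had an unadjusted limma p of 0.017.

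Abcc2, the canalicular pump for conjugates, had a log2 fold change of -0.44, and Slc22a8, an organic anion transporter, of -0.66. Over all named genes 5766 were above 0 and 5537 below, and 2.62% were higher and 2.52% lower at an unadjusted limma p under 0.05, beside which the counts of the lists that follow stand. Hepatic transporters had 2 members above 0 and 20 below among 22 measured, with a median of -0.12, and 1 higher (Abcb1a) and 2 lower (Abcc2 and Slc22a8) at an unadjusted limma p under 0.05. The number of lower transporters was 0 without the first rat at 30 mg/kg or the first or second vehicle rat, and 5 without the second rat at 30 mg/kg. The 34 measured Cyp genes of families 2 to 4, which hold most of the drug oxidizing enzymes, had 12 members above 0 and 22 below with a median of -0.02, and Cyp2j10 alone had an unadjusted limma p under 0.05 (log2 fold change 0.93). Leaving out 1 rat gave 0 to 2 higher and 0 to 2 lower Cyp genes. Nqo1 alone did so among 24 Nrf2 genes (median 0.02). The glutamate cysteine ligase subunits Gclc and Gclm, classical Nrf2 targets, had log2 fold changes of 0.02 and -0.03. Of 18 CAR and PXR targets, 3 were higher (Aldh1a1, Abcb1a and Ugt2b1) and 1 lower (Abcc2), with a median of 0.12, and without the third rat at 30 mg/kg 0 were higher. That count was 1 without the second vehicle rat. Cyp3a2, which PXR regulates, had a log2 fold change of -0.01.

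**Figure D3:**
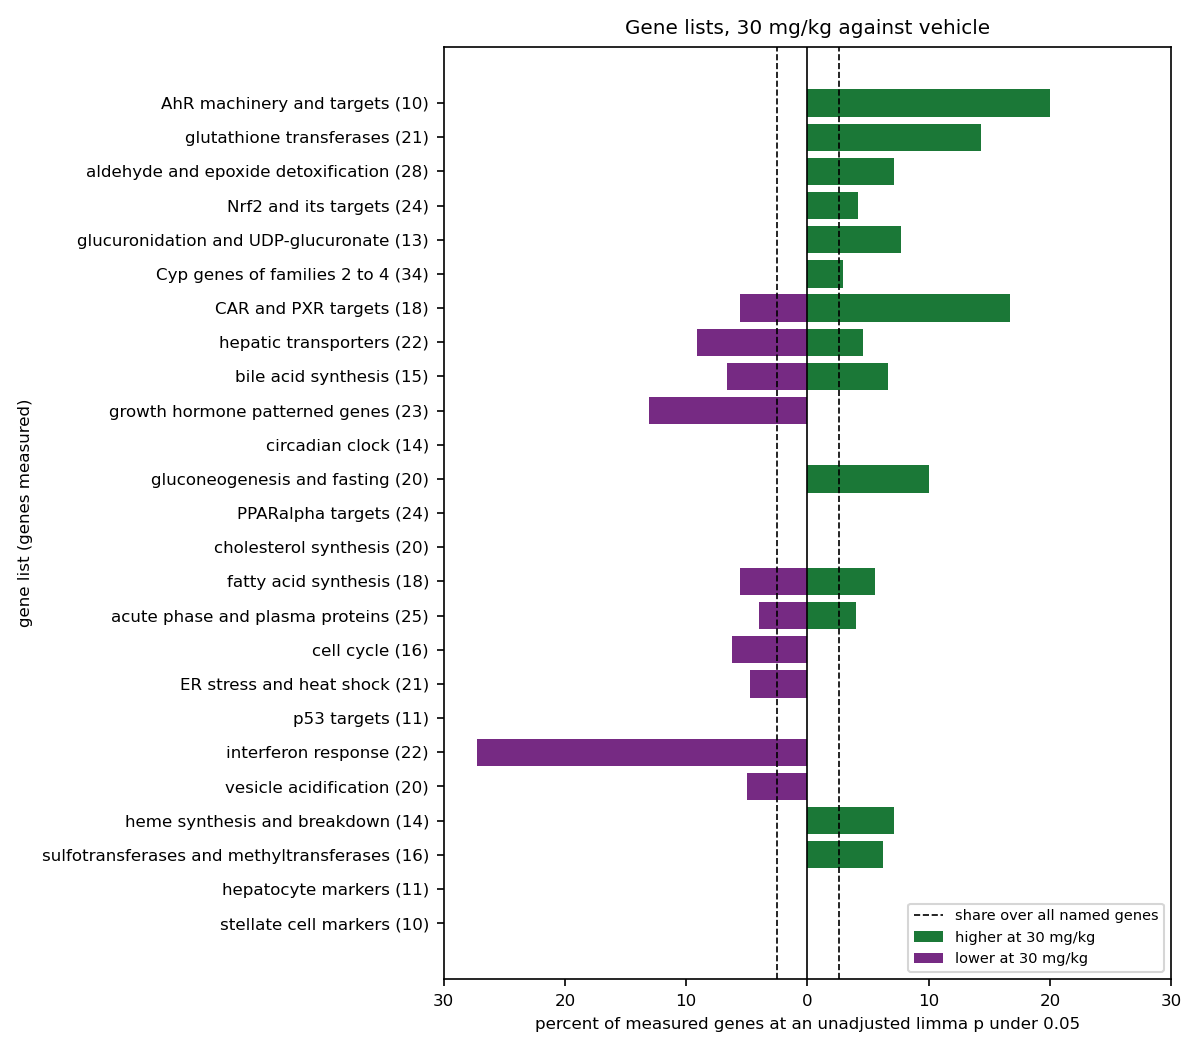
Percent of the measured genes (x axis) of each list with at least 10 measured genes (y axis, number in brackets) at an unadjusted limma p under 0.05, with bars to the right for higher and to the left for lower at 30 mg/kg. Dashed lines mark the shares over all named genes, 2.62% higher and 2.52% lower, and the interferon response bar, 6 of 22 genes lower, is the longest.

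Dmxl2, a partner of the proton pump that acidifies vesicles, had the smallest p of all 21746 probe sets. It was at 6.22, 6.15 and 6.01 at 30 mg/kg, against 7.35, 7.16 and 7.13 in vehicle rats. Each group was tight and the gap between the groups was wide. The log2 fold change was -1.09 (standard error 0.14, a level 0.47 times that of vehicle, unadjusted p = 2.42e-06) with an adjusted p of 0.0526 in limma, just outside the threshold. Its adjusted p was under 0.05 in 6 of 24 alternatives, over which it ran between 0.035 and 0.662 in limma and in the methods' t-test, and a threshold of 0.1 also let it pass. The levels did not follow the dose. The 100 mg/kg rats had 6.78, 6.87 and 7.14, near vehicle, and the 200 mg/kg rats had 5.92, 5.998 and 5.98. The difference of 100 over 30 mg/kg was 0.80 (95% interval 0.51 to 1.10, adjusted p = 0.299 in limma), and 200 mg/kg passed against vehicle (adjusted p = 0.00189 in limma, with a log2 fold change of -1.25). Of the 20 measured genes of vesicle acidification, Dmxl2 was the 1 lower at an unadjusted limma p under 0.05, 0 were higher, and the median was 0.01.

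Beside Dmxl2 and Cyp1a2, the smallest p-values belonged to genes outside foreign compound metabolism, which were picked here after their values were seen. Csrp1, a LIM protein of the actin cytoskeleton, was at 7.91, 7.90 and 7.97 at 30 mg/kg, against 8.52, 8.42 and 8.49 in vehicle rats. The rats of each group were nearly equal, and the log2 fold change was -0.55 (standard error 0.09, adjusted p = 0.224 in limma). Csrp1 was lower again at 200 mg/kg, with 7.68, 7.64 and 7.54, where it passed against vehicle (adjusted p = 0.00141 in limma). Acsl5, a long chain acyl-CoA synthetase, was at 10.40, 10.25 and 10.14 at 30 mg/kg, against 9.68, 9.63 and 9.67 in vehicle rats. It stood above vehicle at this dose alone, with 9.59, 9.58 and 9.23 in the 100 mg/kg rats and 9.64, 9.66 and 9.55 in the 200 mg/kg rats. The log2 fold change of 30 mg/kg over vehicle was 0.60 (adjusted p = 0.236), and that of 200 over 30 mg/kg was -0.64 (adjusted p = 0.0529 in limma), so that neither passed. Anp32a, an inhibitor of protein phosphatase 2A, had a log2 fold change of 0.97, and Vac14, a scaffold for a lipid kinase of endosomes, of -0.84.

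The 10 largest differences upward without overlap, among probe sets with a mean above the 25th percentile of all values and with an unadjusted limma p under 0.05, ran over 1.49 to 2.29, and the 10 largest downward over -2.63 to -1.39. The upward genes were C15h8orf58, Rasl10b, Ggt7, Rgs12, Gsta3, Dmwd, Znf768, LOC100910237, Ifitm10 and Sult2a6. The vehicle mean of 7 of these 10 genes was below the floor of 3.84, the 25th percentile of all values, so that they entered this ranking through the 30 mg/kg rats and their differences are set against dim values. The other 3 were Rgs12, Gsta3 and Sult2a6. The downward genes were RGD1309362, Insm2, Trpv2, Acsm2, Rtn4ip1, Slco1a5, Nim1k, Cib2, Nox4 and Ccdc78. Of these 10, Insm2, Trpv2 and Ccdc78 had a mean below the floor at 30 mg/kg and entered through the vehicle rats, so that their differences are likewise set against dim values. Rtn4ip1 had a log2 fold change of -1.54 in the probe set ranked here, and of 0.04 in a second, dimmer probe set. RGD1309362 was at 5.94, 5.64 and 4.97 at 30 mg/kg, against 8.12, 8.01 and 8.29 in vehicle rats. It was the largest of the downward differences (log2 fold change -2.63, unadjusted p = 0.0042, adjusted p = 0.943 in limma). It passed when only the 6 arrays were fitted (adjusted p = 0.0406) and without the third rat at 200 mg/kg (adjusted p = 0.00621 in limma). The 200 mg/kg rats were at 5.29, 6.06 and 9.55, so that the third stood far from the others. The 100 mg/kg rats, at 5.66, 5.51 and 5.82, were as low as those at 30 mg/kg. Sult2a6, a bile salt sulfotransferase, was the brightest of the upward genes, at 9.56, 11.24 and 10.48 at 30 mg/kg and at 8.77, 9.52 and 8.52 in vehicle rats. Its lowest dosed rat lay next to its highest vehicle rat. Rgs12, a regulator of G protein signaling, was at 6.56, 6.23 and 6.59 at 30 mg/kg and at 3.91, 4.33 and 6.14 in vehicle rats. The third vehicle rat stood near the dosed rats, and Rgs12 passed without it (log2 fold change 2.34, adjusted p = 3.23e-04 in limma).

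Acsm2, a medium chain acyl-CoA synthetase, lay on opposite sides of vehicle at 30 and 200 mg/kg, but neither difference from vehicle passed. It was at 5.65, 5.84 and 5.75 at 30 mg/kg, against 8.21, 7.72 and 7.12 in vehicle rats, with a log2 fold change of -1.94 (standard error 0.58, unadjusted p = 0.0056, adjusted p = 0.943 in limma). It was at 7.88, 9.14 and 6.19 in the 100 mg/kg rats and at 10.27, 8.61 and 9.85 in the 200 mg/kg rats. Dosed rats thus lay below all vehicle rats at 30 mg/kg and above them at 200 mg/kg. The log2 fold change of 200 mg/kg over vehicle was 1.90 (adjusted p = 0.273 in limma). The difference of 200 over 30 mg/kg was 3.83 and passed (standard error 0.58, adjusted p = 0.0452 in limma), but it was lost in 9 of the 12 fits that left out 1 rat.

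Interferon response genes, which liver cells switch on against viruses, had the largest share of lower members of any list with at least 10 measured genes. Of 22 measured members of 24 listed, 6 were lower at an unadjusted limma p under 0.05 and 0 higher, against 2.52% of all named genes. Without overlap 5 were lower, 4 of these 6 and Cxcl10, against 5.04% of all named genes. The 6 were Ifi27, the antiviral GTPases Mx1 and Mx2, Usp18, which removes the ubiquitin-like protein Isg15, Oas1a, an RNA sensor, and Ifit3. Their log2 fold changes were between -1.20 and -0.47, and none passed after adjustment.

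**Figure D4:**
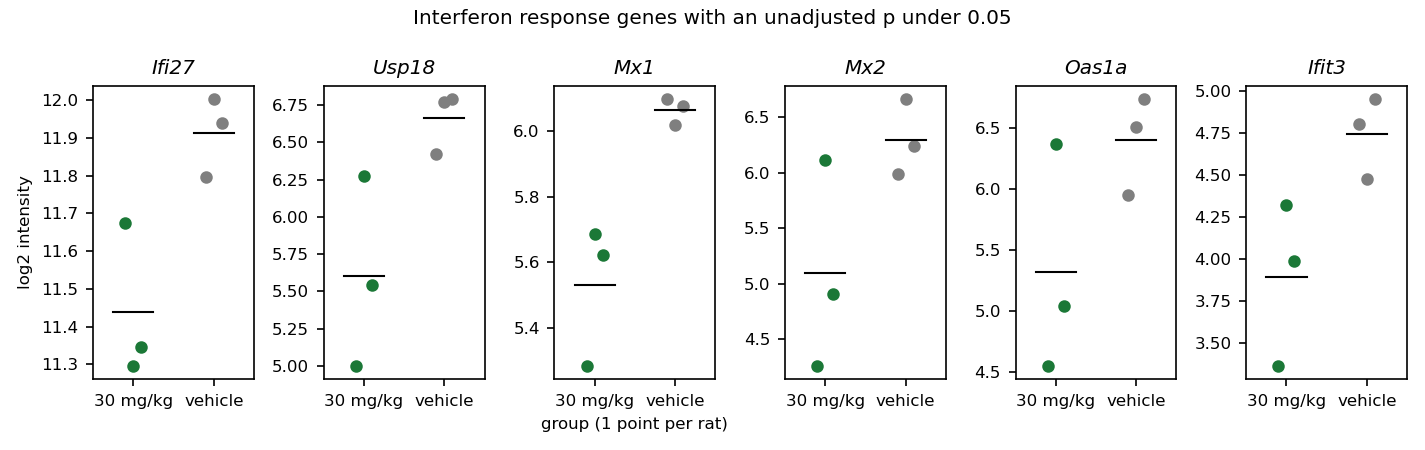
Log2 intensity (y axis, a separate range in each panel) of the 6 interferon response genes with an unadjusted limma p under 0.05, with 1 point per rat at 30 mg/kg (green, left) and vehicle (gray, right) and a line at the mean of 3 rats. The second rat at 30 mg/kg stands near vehicle for Usp18, Mx2 and Oas1a.

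Ifi27, the brightest of them, was at 11.68, 11.30 and 11.35 at 30 mg/kg, against 11.80, 12.00 and 11.94 in vehicle rats. Usp18 was at 5.00, 6.28 and 5.54 at 30 mg/kg, against 6.42, 6.77 and 6.79 in vehicle rats. Mx1 was at 5.28, 5.69 and 5.62 at 30 mg/kg, against 6.10, 6.02 and 6.08 in vehicle rats. All 3 genes were lower in every dosed rat than in every vehicle rat, with the vehicle rats tight and the dosed rats spread. Mx2 was at 4.26, 6.12 and 4.91 at 30 mg/kg, against 5.98, 6.66 and 6.24 in vehicle rats. Here the second dosed rat lay above the first vehicle rat. A second, dimmer probe set of Mx2 had a log2 fold change of -0.26 (unadjusted p = 0.436 in limma). The mean level over the 22 genes was 6.15, 6.85 and 6.42 at 30 mg/kg and 6.61, 6.70 and 6.90 in vehicle rats, so that the groups overlapped through the second dosed rat. The count rested on single rats, with 1 lower gene left without the first rat at 30 mg/kg, 2 without the third, 8 without the second, 3 without the second vehicle rat and 2 without the third vehicle rat. Lymphocyte markers (7 measured of 14) summed to 223.4 to 287.7 units at 30 mg/kg and 272.2 to 320.8 units in vehicle rats, and macrophage markers (9 of 12) to 2431 to 2835 units at 30 mg/kg and 2281 to 2965 units in vehicle rats, and their part was not tested. Of the antigen processing genes of the list, Tap1, a peptide transporter subunit, had a log2 fold change of 0.00 and B2m, the light chain of class I molecules, of -0.09. Means at 100 and 200 mg/kg were 5.76 and 5.97 for Mx1 and 6.13 and 6.27 for Usp18, between those of 30 mg/kg and vehicle.

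Genes with a growth hormone pattern, which differ between male and female rat liver or signal for the hormone, had 18 members below 0 and 5 above among 23 measured, with a median of -0.14. At an unadjusted limma p under 0.05, 3 were lower (Igfals, Cish and Ghr) and 0 higher, beside 2.52% lower and 2.62% higher over all named genes, of which 5537 were below 0 and 5766 above. Ghr, the hormone's receptor, was at 9.66, 9.78 and 9.42 at 30 mg/kg, against 9.85, 9.93 and 9.86 in vehicle rats. The difference was small, at -0.26, but without overlap. In a second, dimmer Ghr probe set the groups overlapped, with a log2 fold change of -0.38 (unadjusted p = 0.030 in limma). Igfals, the carrier of the growth factor Igf1, had a log2 fold change of -0.61, and the second dosed rat lay among the vehicle rats. For Igf1 itself the difference was -0.20 (95% interval -0.42 to 0.02). Without the first or the third rat at 30 mg/kg 0 members were lower, without the first or second vehicle rat or the third at 100 mg/kg 1 was, and without the first rat at 200 mg/kg 5 were.

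Among the lists of metabolism, Cyp27a1, a sterol hydroxylase of bile acid synthesis, was at 11.04, 10.72 and 11.05 at 30 mg/kg, against 10.47, 10.50 and 10.63 in vehicle rats. The groups did not overlap, and the difference of 0.40 had an unadjusted limma p of 0.0071. Nr1h4, the bile acid receptor, had a log2 fold change of -0.31. They were the 1 higher and the 1 lower gene among 15 of bile acid synthesis. Fatty acid synthesis had Fads2, a desaturase, higher (0.36) and Mlxipl, the glucose sensing regulator, lower (-0.31) among 18 measured. Gluconeogenesis and fasting had Gys2, the liver glycogen synthase, at 0.26 and Ppargc1a, a coactivator induced by fasting, at 0.94 as the 2 higher of 20. Ppargc1a was at 3.46, 4.97 and 3.55 in vehicle rats and at 4.99, 4.76 and 5.05 at 30 mg/kg, with overlap. PPARalpha targets, cholesterol synthesis, circadian clock and p53 targets had 0 genes at an unadjusted limma p under 0.05 in either direction among 24, 20, 14 and 11 measured. Acute phase and plasma proteins had Cd14 higher and Apoa4 lower among 25. Without overlap 5 of these proteins were lower and 0 higher, against 5.04% lower and 5.25% higher of all named genes. Of the 25 members, 19 were below 0 and 6 above, where all named genes had 5537 below and 5766 above. Cell cycle had Top2a lower among 16, and ER stress and heat shock had Xbp1 lower among 21. Heme synthesis and breakdown had Hebp1 higher among 14, sulfotransferases and methyltransferases had Sult1b1 higher among 16, aldehyde and epoxide detoxification had Aldh1a1 and Aldh16a1 higher among 28, and glucuronidation had Ugt2b1 higher among 13. The medians of all lists named in this paragraph lay between -0.07 and 0.13, and their counts stand beside 2.62% higher and 2.52% lower over all named genes. When 1 rat was left out, gluconeogenesis and fasting had 0 to 4 higher genes (0 without vehicle rat 1 or the third rat at 30 mg/kg, 1 without the first rat at 30 mg/kg or the third vehicle rat, 4 without the second rat at 30 mg/kg). Aldehyde and epoxide detoxification had 0 to 3 higher (0 without the third rat at 30 mg/kg, 1 without its first rat or the first or second vehicle rat). Each other list of this paragraph had at most 4 higher and 3 lower genes in these fits, the 4 in sulfotransferases and methyltransferases without the second rat at 30 mg/kg.

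Markers of other cells of the liver were compared in the same way. Pecam1, an endothelial adhesion protein, was at 5.97, 5.62 and 5.80 at 30 mg/kg, against 5.18, 5.23 and 4.99 in vehicle rats, with a log2 fold change of 0.66 (unadjusted p = 0.024 in limma). It was the only 1 of 7 endothelial markers with such a p, and the summed intensity of the 7 was 2024 to 2241 units at 30 mg/kg and 1880 to 2296 units in vehicle rats. Macrophage, stellate cell, cholangiocyte, lymphocyte and neutrophil markers had 0 of 9, 10, 3, 7 and 3 measured members at an unadjusted limma p under 0.05. Stellate cell markers summed to 1902 to 1977 units at 30 mg/kg and 2051 to 2407 units in vehicle rats, without overlap. A sum is weighted to the brightest markers. The mean log2 level over the 10 stellate markers did overlap, at 6.33, 6.17 and 6.42 at 30 mg/kg and 6.41, 6.51 and 6.16 in vehicle rats. Of the 10, 4 were above 0 and 6 below, where all named genes had 5766 above and 5537 below. Erythroid markers summed to 2586 to 4573 units at 30 mg/kg and 3194 to 5449 units in vehicle rats, with Slc4a1, an anion exchanger of red cells, at a log2 fold change of -1.19. Exocrine pancreas markers (6 measured of 11) were dim, and Prss1, a trypsinogen at the low levels of 3.49 to 4.23 at 30 mg/kg and 2.17 to 3.45 in vehicle rats, had a log2 fold change of 1.14. The part of other cell types in the results above was not tested.

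Which genes separate the lowest from the higher doses was tested by the difference between doses. No probe set passed between 100 and 30 mg/kg (limma, 0 of 21665, 0%), with 634 higher (2.93%) and 605 lower (2.79%) at an unadjusted limma p under 0.05. Between 200 and 30 mg/kg, 8 probe sets were higher (0.0366%) and 1 was lower (0.00457%) of 21874. They belonged to Ephx1, Gsta3, Akr7a3, Ugdh, Entpd5, Me1 with 2 probe sets, Acsm2 and, in the lower direction, Afm. Ephx1, Gsta3, Akr7a3 and Ugdh are enzymes of detoxification or of its sugar supply.

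Ephx1, the microsomal epoxide hydrolase, was at 12.65, 12.37 and 12.49 at 200 mg/kg, against 10.84, 10.95 and 11.14 at 30 mg/kg. The vehicle rats, at 11.05, 11.16 and 10.90, overlapped the 30 mg/kg rats, with a log2 fold change of -0.06 (95% interval -0.37 to 0.25). Ephx1 was 1.53 higher at 200 than at 30 mg/kg (standard error 0.14, adjusted p = 0.00107 in limma). Akr7a3, an aflatoxin aldehyde reductase, was at 12.04, 11.05 and 11.05 at 200 mg/kg, against 7.66, 8.02 and 8.65 at 30 mg/kg. The vehicle rats were at 7.59, 7.69 and 7.87, so that 2 of 3 rats at 30 mg/kg lay above them all. Akr7a3 was 3.27 higher at 200 than at 30 mg/kg (standard error 0.35, adjusted p = 0.00323 in limma), and its difference of 30 mg/kg over vehicle was 0.39 (95% interval -0.37 to 1.15).

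Ugdh, which makes UDP-glucuronate, was 1.02 higher at 200 than at 30 mg/kg (adjusted p = 0.0309 in limma) and had a log2 fold change of 0.20 at 30 mg/kg over vehicle. Me1, a malic enzyme that yields NADPH, was 1.00 higher by its brighter probe set (adjusted p = 0.0452 in limma), with a log2 fold change of -0.01 at 30 mg/kg over vehicle. Entpd5, a nucleotidase of the endoplasmic reticulum, passed in 1 of 3 probe sets and not in the brightest (1.14, adjusted p = 0.0375 in limma). Afm, a plasma carrier of vitamin E, was lower by 0.65 on the log2 scale at 200 than at 30 mg/kg (adjusted p = 0.0452 in limma, for a log2 fold change of -0.65). Ephx1, Gsta3 and Akr7a3 passed in all 12 fits that left out 1 rat. The calls of Ugdh, Entpd5, Acsm2, Afm and both Me1 probe sets were lost in 4 to 11 of these fits.

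**Figure D5:**
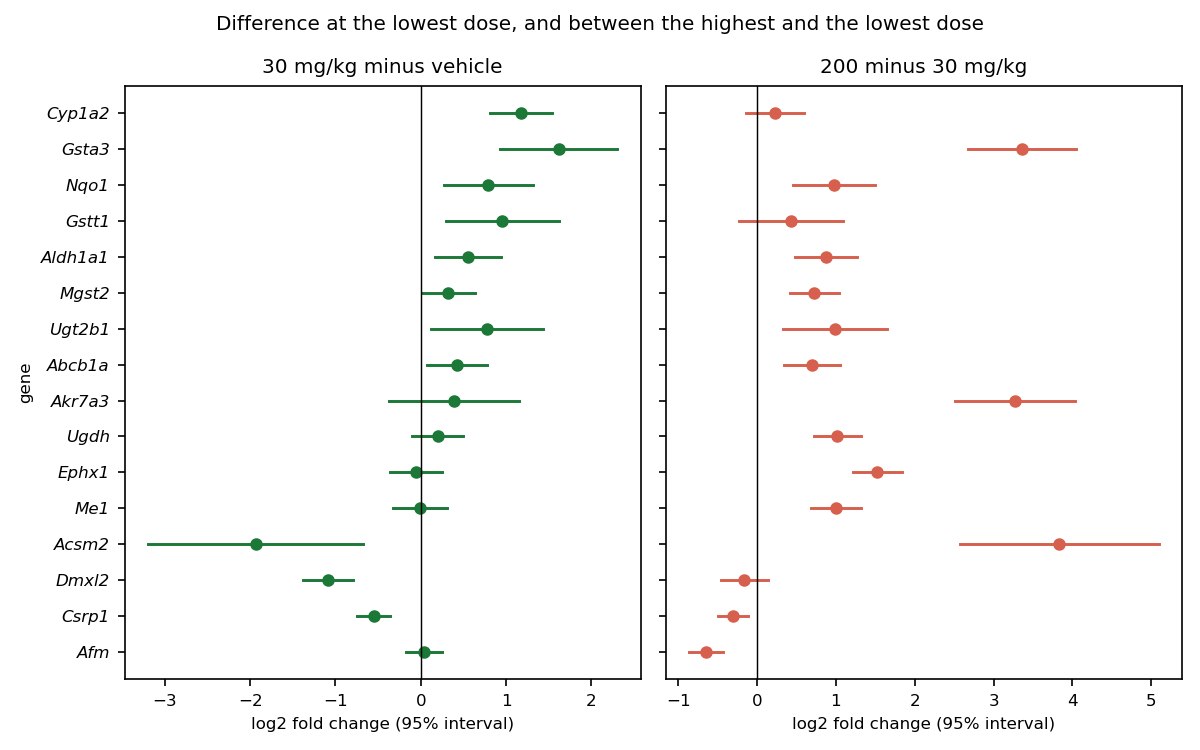
Log2 fold change with its 95% interval (x axis) of 16 genes (y axis) for 30 mg/kg minus vehicle (left) and 200 minus 30 mg/kg (right), from limma. Cyp1a2 and Dmxl2 lie away from 0 on the left and near 0 on the right, Ephx1 and Me1 the other way round, and Gsta3 away from 0 on both sides.

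Probe sets with a value in 1 group only could not enter the fit. Of 29176 probe sets, 50 had a value in all 3 rats at 30 mg/kg and in 0 vehicle rats, and 53 the other way round. Nearly all were dim, and 4 were brighter than the floor of 3.84 (14.31 units), the 25th percentile of all values. The brightest was Ncaph, a condensin subunit of dividing cells, at 5.35, 5.02 and 4.91 in the 3 rats at 30 mg/kg. Ncaph was at least 2.39-fold higher at 30 mg/kg only if empty values are below the floor, which is not known. It was picked as the brightest of probe sets chosen for having no value in 1 group, and its difference was not tested.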

How the data were processed

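Livers of 12 rats were profiled with 1 Affymetrix RAE230 2.0 array per rat, and the arrays were grouped by their titles. The values that the authors deposited are log10 intensities from Rosetta Resolver, with 1 value for each probe set on each array. How background and scaling were handled, and why values are empty, could not be learned (not given in the sources used here). A base of 10 follows from the range of the values. A second deposited table, which was not used, holds signed folds of single treated rats over vehicle, with folds below a cutoff written as 1.

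The log10 values were converted to log2 without further scaling, and empty values were left out. Names came from the platform annotation, and symbols were updated from RefSeq (GRCr8): of the 21746 probe sets compared, 15462 have 1 symbol, 364 have several and name no gene, and 5920 are unnamed here. The probe set with the highest mean stands for a gene. Of the probe sets compared, 3468 are dim, with a mean below the floor (the 25th percentile, 3.84), where the median standard error is 0.75 against 0.23 above it. Group means were fitted in limma 3.58.1 (R 4.3.3) with a variance trend and 8 residual degrees of freedom, and p-values were adjusted over all probe sets of a comparison. Figures were drawn with matplotlib 3.10.9.

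The fit was tested on simulated data for 30 mg/kg against vehicle (21746 probe sets): 31% of 100 simulated 2-fold changes and 63% of 100 simulated 4-fold changes were recovered, with 6 calls among the unchanged. Named genes are Cyp1a1, Cyp1a2, Ahr, Nqo1, Abcc3 and Dmxl2, every gene that passes, the genes of smallest p in each list (at most 4), their partners in a list, and the 10 largest differences in each direction without overlap, at an unadjusted p under 0.05 and above the floor. The comparison, the gene lists and this rule were chosen with earlier results of these data known. Alternatives were other normalizations, variance models, filters, thresholds and sets of arrays, a floor, array weights, the methods' t-test, a block for rat number and leaving out each rat.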

Additional observations from a re-analysis of the deposited data

How the results depend on the processing

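The count of probe sets called at 30 mg/kg against vehicle was 0 in both directions, and several settings moved it by 1 or 2. There was 1 lower call at an adjusted p threshold of 0.1, with only the 6 arrays in the fit, with robust eBayes, with quantile normalization, in the wider table of all probe sets with a value in both groups, with a filter on dim probe sets and with array weights, and 2 with the floor. There was 1 higher call with quantile normalization, in the wider table and with array weights. The methods' t-test without adjustment gave 482 higher and 543 lower, and a Cyp1a2 difference of 1.17 (unadjusted p = 0.0117, a parametric value on 3 rats against 3, beside the exact permutation p of 0.1). Cyp1a2 was at 1.23 with quantile normalization and at 1.24 with array weights. Leaving out 1 rat gave 0 to 2 higher and 0 to 1 lower calls, 2006 to 2337 probe sets higher and 2013 to 2418 lower without overlap, where fewer rats overlap less often by construction, and 1.01 to 1.43 for Cyp1a2, the highest without vehicle rat 3. Between 200 and 30 mg/kg, 5 probe sets were higher with only these doses in the fit, and 3 to 11 higher (3 without the first rat of either dose, 4 without rat 2 or rat 3 at 30 mg/kg) and 0 to 3 lower when 1 rat of these doses was left out (0 without the first or second at 30 mg/kg, 3 without the second at 200 mg/kg). Apoa1, a marker at 0.09, had -0.0308 to 0.154 when 1 rat was left out, with the negative value without the first rat at 30 mg/kg, and did not pass in any of these fits. Of the 65 named genes, only Apoa1 changed sign under any alternative run. Apart from the values given, the cause was not tested.

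Rat numbers do not pair the samples: deviations of rats with the same number correlated at -0.06 to 0.00. With the rat number as a block 0 probe sets passed, Dmxl2 and Cyp1a2 had an adjusted p of 0.105 each in limma, and 537 were higher and 609 lower at an unadjusted limma p under 0.05.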
